A study of Homo sapiens with 4 samples.

Results

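The genes described here are 9 brakes of the ERK pathway: the MAP kinase phosphatase genes DUSP1, DUSP4, DUSP5 and DUSP6, the Sprouty genes SPRY2 and SPRY4, the related genes SPRED1 and SPRED2, and ERRFI1. They were taken by name, 9 of 19974 protein-coding genes on chromosomes 1 to 22 and X, and every RNA polymerase II (Pol II) peak from 5000 bp before the gene start to 5000 bp after the gene end was collected (RefSeq, GRCh38). Pol II had been profiled by chromatin immunoprecipitation and sequencing (ChIP-seq) in U2OS, a human osteosarcoma cell line, to see how it is distributed when NKAP, a nuclear RNA-binding protein, is depleted. Both groups were U2OS cells transfected with siRNA for 48 h and fixed with 1% formaldehyde for 10 min; the control group had the genotype label control and the other the label NKAP KD, and the siRNA sequences were not given. Each group held 1 Pol II ChIP library, so the differences below were not tested and have no replicates behind them. NKAP transcript and protein levels are not part of these peak lists, so the depletion was not checked here. An input library (chromatin without antibody) is also listed for each group, and neither was analysed here.

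Growth factor receptors signal through RAS, RAF and MEK to the kinase ERK, which enters the nucleus and switches on a set of genes within minutes. Some of these genes encode inhibitors of the same pathway, so the signal limits itself. DUSP proteins remove the activating phosphates from MAP kinases, Sprouty and SPRED proteins act upstream on the route from receptor to RAF, and ERRFI1 (also called MIG6) binds the kinase domain of EGFR and blocks it. Such genes are often used as a readout of ERK output.

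The promoters below are those of the 5 genes whose gene start lay under a peak in both lists and whose sequence is in the RefSeq promoter table (build GRCh38.p14). The summit of such a peak can lie outside the printed bases. Both SPRED1 summits did, 521 and 522 bp before the start, as did the knockdown summit of SPRED2, 166 bp inside the gene. DUSP5 also had a peak over an end in both lists; DUSP4 and DUSP5 have no entry in that table, which matched 7 of the 9 genes by gene ID. Each runs 5′ to 3′ on the gene's strand from 250 bases before the start to 50 after it, and capitals mark matches to the motifs searched. The regions are chr5:172771146-172771445 (minus strand) for DUSP1, chr1:8026260-8026559 (minus) for ERRFI1, chr15:38252586-38252885 (plus) for SPRED1, chr13:80341077-80341376 (minus) for SPRY2 and chr2:65432550-65432849 (minus) for SPRED2. SPRY2 has 3 starts in the table and SPRED2 has 2, and the outermost is shown.
DUSP1: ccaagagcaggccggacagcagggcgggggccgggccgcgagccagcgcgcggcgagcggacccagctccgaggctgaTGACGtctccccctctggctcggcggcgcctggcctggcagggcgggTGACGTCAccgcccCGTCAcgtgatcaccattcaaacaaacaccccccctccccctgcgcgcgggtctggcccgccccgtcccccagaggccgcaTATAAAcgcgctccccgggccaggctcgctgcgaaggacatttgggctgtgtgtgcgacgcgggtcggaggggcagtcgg
ERRFI1: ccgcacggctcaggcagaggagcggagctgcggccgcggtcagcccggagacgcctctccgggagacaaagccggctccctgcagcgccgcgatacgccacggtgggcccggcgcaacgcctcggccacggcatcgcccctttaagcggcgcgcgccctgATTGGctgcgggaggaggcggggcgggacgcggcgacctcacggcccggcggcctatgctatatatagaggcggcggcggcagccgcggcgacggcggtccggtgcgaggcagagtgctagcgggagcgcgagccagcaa
SPRED1: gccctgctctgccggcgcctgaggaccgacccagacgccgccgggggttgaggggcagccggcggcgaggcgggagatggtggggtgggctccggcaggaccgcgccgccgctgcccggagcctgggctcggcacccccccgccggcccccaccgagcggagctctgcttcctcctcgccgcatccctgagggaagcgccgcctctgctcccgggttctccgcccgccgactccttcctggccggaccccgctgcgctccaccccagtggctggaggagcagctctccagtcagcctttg
SPRY2: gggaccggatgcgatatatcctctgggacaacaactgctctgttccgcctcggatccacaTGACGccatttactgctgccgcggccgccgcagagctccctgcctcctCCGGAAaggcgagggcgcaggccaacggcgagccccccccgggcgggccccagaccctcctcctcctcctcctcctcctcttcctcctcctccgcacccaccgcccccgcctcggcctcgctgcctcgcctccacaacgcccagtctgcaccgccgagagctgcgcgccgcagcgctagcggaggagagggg
SPRED2: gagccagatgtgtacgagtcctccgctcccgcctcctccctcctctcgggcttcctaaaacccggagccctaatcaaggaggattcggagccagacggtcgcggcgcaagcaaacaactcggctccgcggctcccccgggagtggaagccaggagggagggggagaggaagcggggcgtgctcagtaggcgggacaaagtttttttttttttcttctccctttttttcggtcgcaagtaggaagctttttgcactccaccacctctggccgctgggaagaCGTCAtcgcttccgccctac
The motifs searched on both strands were the cAMP response element TGACGTCA, its part TGACG (which lies within the first), the AP-1 site TGANTCA, the ETS core CCGGAA, the TATA box in the form TATAAA, the CCAAT box under its own letters, and the CArG box, the site of serum response factor, by its name. The DUSP1 promoter held the full TGACGTCA, starting 125 bases before the gene start, and TATAAA starting 30 bases before it. Among all 35116 promoters of the table, TGACGTCA was in 1.85% and TATAAA in 11.5%. The part TGACG was in the promoters of DUSP1, SPRY2 and SPRED2, and in 24.6% of all. The ERRFI1 promoter held CCAAT on the opposite strand, 90 bases before the start (34.6% of all promoters hold CCAAT). The SPRY2 promoter held CCGGAA 142 bases before the start (17.2% of all). SPRED1 had no match to any of them, and the AP-1 motif (7.71% of all promoters) and the CArG box (1.29%) were in none of the 5. The GC content of the 5 ran from 60.0% (SPRED2) to 76.3% (SPRED1), against a median of 58.7% over the table.

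The peak lists differ in length and depth, which touches every comparison. The control list held 36345 peaks on these chromosomes and the knockdown list 26387. By the estimate used here the knockdown ChIP library was 0.857 times as deep as the control one, and reads at a summit are given below as recovered and, for the knockdown, also divided by this ratio ("at control depth"). The library that served as the caller's background is not given in the sources used here, and every fold, background value and depth ratio below depends on it. Median summits held 18 reads (control) or 19 (knockdown), so most single peaks rest on few reads. Where both lists had a peak, peaks covered less of a gene's window in the knockdown list for 87.3% of 12932 protein-coding genes, with a median ratio of 0.677, and the median ratio of reads at the strongest summit was 0.900. Among marker lists for the labelled cell type, 8 of 12 osteoblast and mesenchymal genes had a window peak in both lists (RUNX2, SP7, ALPL, BGLAP, COL1A1, SPARC, VIM and FN1), and SPP1, IBSP, COL1A2 and TWIST1 had none. Of 8 epithelial genes KRT8, KRT18 and CLDN4 had a peak in both and CDH1 in the control list only; of 6 blood genes, PTPRC and SPI1 had one in both.

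Pol II peaks were present at 6 of the 9 feedback genes, the same 6 in both lists: DUSP1, DUSP5, SPRY2, SPRED1, SPRED2 and ERRFI1. DUSP4, DUSP6 and SPRY4 had no peak in either. Over all protein-coding genes, 64.7% had a window peak in both lists and 28.2% in neither, so the members' shares are near the background. The 9 windows held 13 control peaks and 24 knockdown peaks. Of the 6 genes, DUSP5, SPRY2 and ERRFI1 had more knockdown peaks than control peaks, as did 13.5% of genes with a peak in both lists, and SPRED2 had fewer, as did 39.9%. A knockdown peak overlapped 9 of the 13 control peaks (69.2%, against 54.2% of all control peaks). A control peak overlapped 11 of the 24 knockdown peaks (45.8%, against 82.8% of all knockdown peaks), so 13 knockdown peaks stood where the control list had none. These 13 lay at DUSP5 (7), ERRFI1 (4) and SPRY2 (2). The 4 control peaks with no knockdown counterpart lay at SPRED2 (3) and DUSP1 (1).

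The length covered by peaks divided the 6 genes evenly. It was higher in the knockdown list at DUSP5, SPRY2 and ERRFI1 and lower at DUSP1, SPRED1 and SPRED2, against 12.7% of all genes higher and 87.3% lower. The sums over the members were nearly equal, 23642 bp in the control and 23768 bp in the knockdown list, a ratio of 1.01. Over all genes with a peak in both lists the ratio of the sums was 0.634. At DUSP5 and SPRY2 the covered length was at least 1.5-fold higher in the knockdown list, a change seen at 2.57% of the 12932 genes. At none of the 6 windows was it at least 1.5-fold lower, which was the case for 48.2% of the genes; with the gene body alone SPRED1, at a ratio of 0.357, and SPRED2, at 0.666, were past that fold. The median ratio was 1.09 over the 6 genes and 0.677 over all genes. With 6 genes and 1 library a group, these counts are a description of the libraries.

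**Figure D1:**
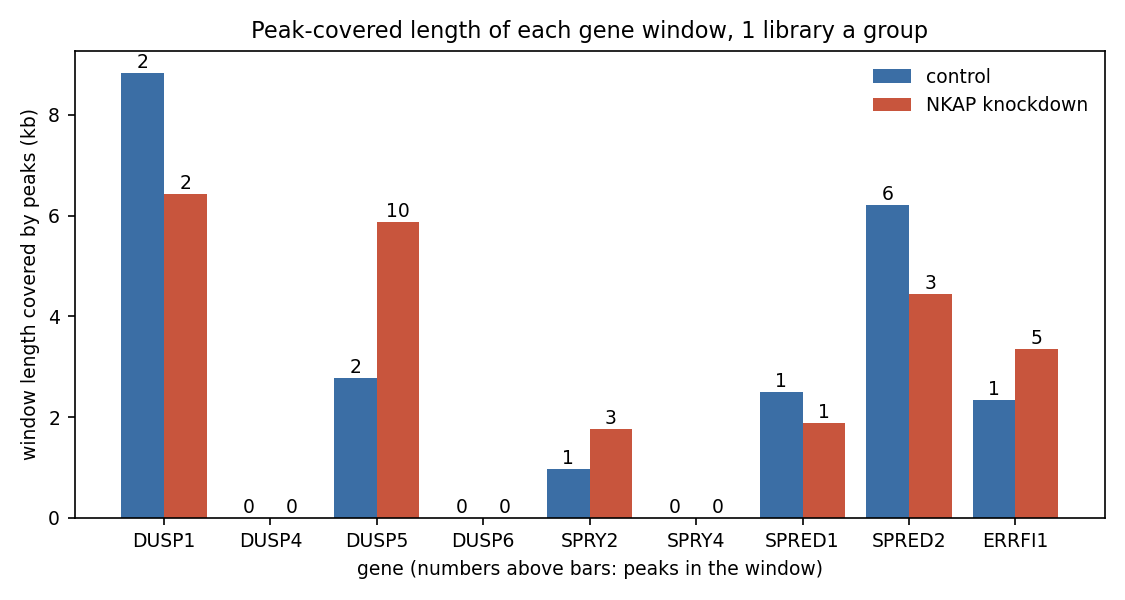
Length of each gene window covered by Pol II peaks (kb, y axis) in the control (blue) and NKAP knockdown (red) lists, 1 library each; the numbers over the bars are peaks touching the window. DUSP5 went from 2 peaks over 2780 bp to 10 peaks over 5868 bp, while DUSP4, DUSP6 and SPRY4 had no peak in either list.

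**Figure D2:**
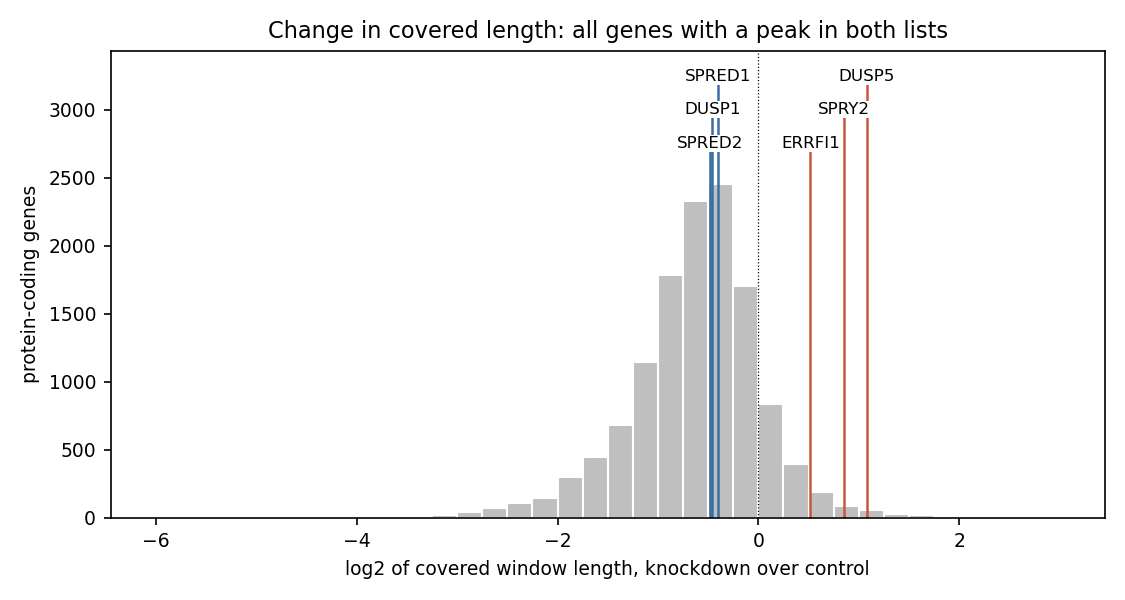
Number of protein-coding genes (y axis) by the log2 ratio of covered window length, knockdown over control (x axis), for the 12932 genes with a peak in both lists; values beyond the axis are placed in the end bins, and lines mark the 6 feedback genes with peaks. DUSP1, SPRED1 and SPRED2 stand in the bulk of the genes, at −0.46, −0.40 and −0.48, and ERRFI1, SPRY2 and DUSP5 on its upper side, at 0.52, 0.86 and 1.08.

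DUSP1 had the strongest Pol II signal of the family in both libraries. It encodes a nuclear phosphatase of ERK, JNK and p38 and belongs to the immediate early genes, which are induced without new protein synthesis. The gene (chromosome 5, 172768096 to 172771195, minus strand) is 3100 bp long and was covered from end to end in both lists by 1 wide peak. That peak was 8488 bp wide in the control list, with a fold enrichment over the background of 58.5 and a −log10 p of 258, and 5309 bp wide in the knockdown list, with a fold of 51.1 and a −log10 p of 162. By p it outranked 99.9% of its list in the control and 99.8% in the knockdown. The summits lay 22 bp inside the gene start in the control and 6 bp before it in the knockdown, on the promoter printed above.

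At the DUSP1 summit there were 167 reads in the control library and 110 in the knockdown library, or 128 at control depth. The ratio was 0.769, with a 95% interval of 0.599 to 0.984 that covers counting error only; the median over all genes was 0.900, inside that interval. The peak drew in on both sides: it ran from 172764850 to 172773337 in the control and from 172767586 to 172772894 in the knockdown list. By all peaks of the window together, the stretch covered before the gene start went from 2142 to 1699 bp. That past the 3′ end went from 3590 to 1636 bp, including the smaller peaks named next. In the knockdown list the region past the gene held a separate peak of 1126 bp (fold 9.62) where the control peak ran through, and the control list had a further peak 3615 bp past the end (fold 5.35, 15 reads) with no knockdown counterpart. The whole window went from 8832 to 6435 covered bp, a ratio of 0.729, and 58.5% of the genes with peaks in both lists had a lower ratio. The lncRNA gene LOC105377730 starts at 172772211, under the DUSP1 peak in both lists, so the reads before the gene start cannot be told apart from reads of that gene.

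**Figure D3:**
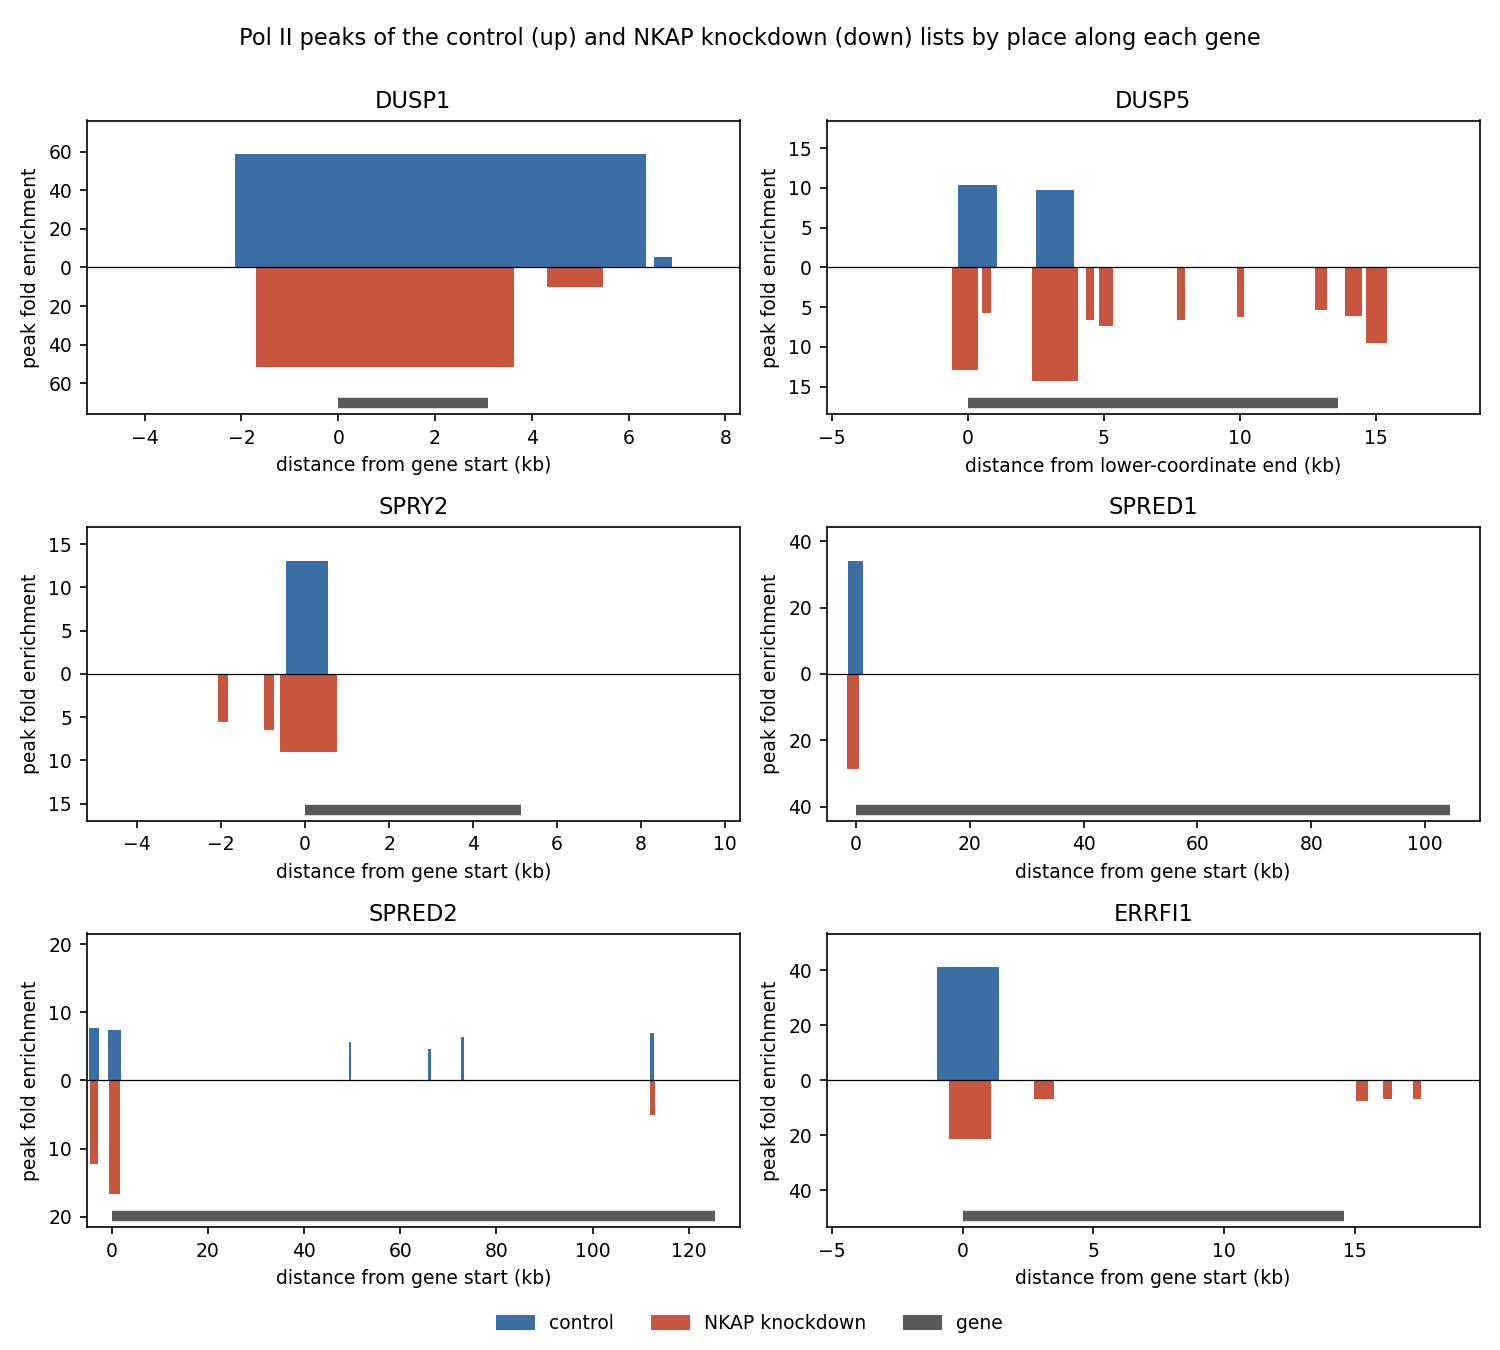
Pol II peaks along the 6 feedback genes that had any, with control peaks drawn upward in blue and knockdown peaks downward in red. The x axis is the distance from the gene start (for DUSP5 from its lower-coordinate end) in kb, the height of a box is the fold enrichment at the peak's summit and its width the peak's extent, so a box is no profile; the grey bar is the gene. DUSP5 and ERRFI1 show knockdown peaks along and past the gene with no control peak opposite, and SPRED2 shows 3 control peaks inside the gene with no knockdown peak opposite.

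Of the 6 genes with peaks, DUSP5 had the largest change in covered length and in number of peaks. It encodes a nuclear phosphatase specific for ERK and is itself induced by ERK. The gene lies on chromosome 10 from 110497907 to 110511533 (13627 bp), and its ends are given by coordinate. In the control list it had 2 peaks: one of 1407 bp over the lower-coordinate end (fold 10.4, 24 reads) and one of 1373 bp centred 3308 bp inside that end (fold 9.70, 28 reads). In the knockdown list it had 10, spread from the lower-coordinate end to beyond the higher one.

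Both control peaks had a stronger knockdown counterpart. The knockdown peak over the lower-coordinate end had a fold of 12.8 and 31 reads, or 36.2 at control depth, a ratio of 1.51 (95% interval 0.856 to 2.68, counting error only), so the difference at this end was within counting error. The interior peak had a fold of 14.2 and 45 reads, or 52.5 at control depth. A small knockdown peak 742 bp inside the end (16 reads) overlapped the first control peak. The other 7 had no control counterpart. Their summits lay 4498, 4948, 7877, 9946 and 12809 bp inside the lower-coordinate end and 683 and 1333 bp past the higher-coordinate end.

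Those 7 peaks were weak, with folds of 5.21 to 9.42 and 11 to 21 reads, which is 12.8 to 24.5 reads at control depth. The 2 control peaks of DUSP5 had backgrounds of 1.41 and 1.99 reads. Where the background was 1.4 to 1.5 reads the control list admitted peaks from 9 reads, and where it was 1.9 to 2.1 from 10 reads. The control background at the 7 places themselves is not given by the peak lists, so whether such pileups would have been listed there was not tested. The strongest of the 7, with 21 reads and a fold of 9.42, lay past the higher-coordinate end. Covered length inside the gene went from 2406 to 3946 bp (17.7% to 29.0% of the gene), and that past the higher-coordinate end from 0 to 1337 bp. Over the window it went from 2780 to 5868 bp, a ratio of 2.11, and 99.1% of the genes with peaks in both lists had a lower ratio. A gain of at least 8 peaks was seen at 7 of 12932 genes (0.0541%), DUSP5 among them. The lncRNA gene DUSP5-DT ends at 110496482, below the lowest peak of the window, which starts at 110497322.

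ERRFI1 had a promoter peak in both lists and, in the knockdown list alone, weak peaks along and past the gene. The gene (chromosome 1, 8011727 to 8026309, minus strand, 14583 bp) had 1 control peak, over its start, and 5 knockdown peaks. The start peak was 2342 bp wide with a fold of 41.1 in the control list, and 1595 bp wide with a fold of 21.0 in the knockdown list. Its reads did not follow that fall in fold: 87 in the control, 67 in the knockdown, or 78.2 at control depth, a ratio of 0.899 (0.644 to 1.25). The caller's background at the summit was 1.14 reads in the control and 2.00 in the knockdown. The summits lay 3 bp before the start and 17 bp inside it.

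The other 4 ERRFI1 peaks were in the knockdown list alone. One lay inside the gene, 2885 bp from the start, and 3 lay past its 3′ end, at 761, 1597 and 2789 bp. They had 12 to 14 reads, or 14.0 to 16.3 at control depth, and folds of 6.41 to 6.98. Covered length past the 3′ end was thus 0 bp in the control and 1006 bp in the knockdown list. The knockdown background at the 4 peaks was 0.890 to 1.00 reads. The control background at their places is not given by the peak lists, so whether such pileups would have been listed there was not tested. Of 10570 genes with peaks in both lists and a strand in the promoter table, 1.67% had cover past the 3′ end in the knockdown list and none in the control, and 9.64% the reverse. Inside the gene covered length went from 1355 to 1810 bp, and before the start from 987 to 536 bp. The window as a whole went from 2342 to 3352 bp, a ratio of 1.43, and 96.9% of genes had a lower ratio. A gain of at least 4 peaks was seen at 0.634% of the 12932 genes. The divergent lncRNA gene ERRFI1-DT starts at 8026493 and shares the start peak. On the other side, the lncRNA gene LOC124903834 ends at 8006733, below the lowest peak of the window, which starts at 8008799.

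SPRY2, an inhibitor of receptor tyrosine kinase signalling that is induced by the same signal, had a modest promoter peak in both lists. The gene (chromosome 13, 80335976 to 80341126, minus strand) is 5151 bp long. Its start peak was 978 bp wide with 27 reads and a fold of 13.1 in the control list, and 1319 bp wide with 28 reads (32.7 at control depth) and a fold of 8.97 in the knockdown list. The fold was thus lower in the knockdown list and the reads at control depth higher, with a ratio of 1.21 (0.687 to 2.13), which is within counting error; the background was 1.14 reads in the control and 2.00 in the knockdown. Past that peak the knockdown list had 2 narrow peaks before the gene, 849 and 1923 bp from the start, with 12 and 10 reads. At control depth these are 14.0 and 11.7 reads. Both peaks were 225 bp wide, the smallest width in the knockdown list, at a background of 0.890 reads. They are part of the covered length before the start given next. The control background at their places is not given by the peak lists. Covered length before the start went from 447 to 1042 bp and inside the gene from 531 to 727 bp. The window went from 978 to 1769 bp, a ratio of 1.81, and 98.6% of genes had a lower ratio. A gain of at least 2 peaks was seen at 3.77% of genes.

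SPRED1 and SPRED2, membrane-bound inhibitors of RAS to RAF signalling, are long genes, and their signal lay mainly near the start. SPRED1 works with neurofibromin, and its loss causes Legius syndrome. It (chromosome 15, 38252836 to 38357249, plus strand, 104414 bp) had a single peak in each list and none farther inside. The peak had 72 reads and a fold of 34.1 in the control, and 57 reads (66.5 at control depth) and a fold of 28.3 in the knockdown, a ratio of 0.924 (0.641 to 1.33). The summits were 1 bp apart, 521 and 522 bp before the start. The peak was 2494 bp wide in the control and 1892 bp in the knockdown list, and it shortened on the gene side: it reached over 994 bp of the gene in the control and 355 bp in the knockdown, against 1500 and 1537 bp before the start. The ratio of covered length, 0.759, was above that of 63.1% of genes.

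SPRED2 (chromosome 2, 65307175 to 65432599, minus strand, 125425 bp) had 6 control and 3 knockdown peaks. Its start peak had 36 reads and a fold of 7.43 in the control, and 41 reads (47.8 at control depth) and a fold of 16.6 in the knockdown. The fold was 2.23 times as high in the knockdown list, while the ratio of reads was 1.33 (0.829 to 2.14), within counting error. The caller's background there was 3.98 reads in the control and 1.35 in the knockdown. A second pair of peaks lay 3808 (control) and 3572 bp (knockdown) before the start, with 53 and 38 reads (44.3 at control depth) and folds of 7.74 and 12.1. The background at this pair was 5.97 reads in the control and 2.00 in the knockdown. Deep in the gene, 112144 and 112183 bp from the start, the lists shared a peak of 22 and 20 reads.

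The 3 control peaks inside SPRED2 with no knockdown counterpart lay 49578, 66011 and 72864 bp from the start, with 16, 13 and 18 reads. At the knockdown depth these would be 11.1 to 15.4 reads. The knockdown list admitted peaks from 8 reads at its lowest background and from 12 where the background was 1.9 to 2.1 reads, so the weakest of them, at 11.1 reads, would reach the first of these counts but not the second. The knockdown background at these 3 places is not given by the peak lists. The second start of SPRED2 in the promoter table, at 65366729 to 65367028, overlaps the control peak from 65366441 to 65366903, and no knockdown peak. Covered length inside the gene went from 3545 to 2361 bp, and in the window from 6216 to 4452 bp, a ratio of 0.716; 56.5% of genes had a lower ratio.

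**Figure D4:**
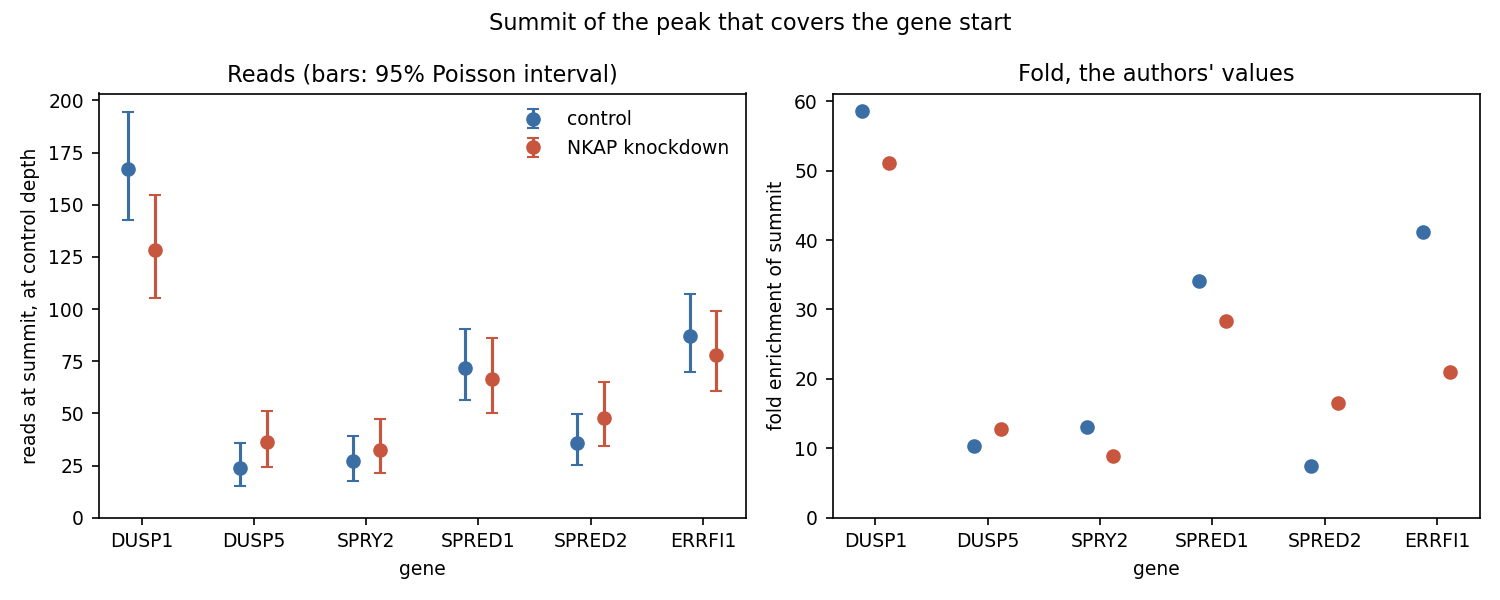
Reads at the summit of the peak over the gene start (left, y axis, knockdown divided by the depth ratio; bars are 95% Poisson intervals, counting error only) and the authors' fold enrichment of the same summits (right), for 6 genes on the x axes; for DUSP5 the lower-coordinate end is used. The intervals of reads overlap between the lists at every gene, while the folds of SPRED2 and ERRFI1 differ about as 7.43 to 16.6 and 41.1 to 21.0.

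At the gene starts, then, the ratio of reads at control depth ran from 0.769 at DUSP1 to 1.51 at DUSP5. Its 95% interval held 1 at all genes but DUSP1. The intervals were wide, as at DUSP5 (0.856 to 2.68), so they do not show that the reads were alike. For the strongest summit in a window, wherever it lay, DUSP5 alone of the 6 passed 1.5-fold, at 2.19 for its interior peak against the control peak at the end; a rise of that size was seen at 3.47% of genes and a fall at 11.2%. None of the 6 fell by that much. The interior peak of DUSP5 had a control counterpart at the same place, with 28 reads against 52.5 at control depth in the knockdown. The order of the genes by reads at the start was DUSP1, ERRFI1, SPRED1, SPRED2, SPRY2 and DUSP5 in the control library, and DUSP1, ERRFI1, SPRED1, SPRED2, DUSP5 and SPRY2 in the knockdown library. SPRY2 and DUSP5, the pair that changed places, had 27 and 24 reads in the control and 28 and 31 in the knockdown, differences smaller than their counting intervals. DUSP1 stood apart from ERRFI1 in both libraries by intervals that did not overlap (143 to 194 and 69.7 to 107 reads in the control), and ERRFI1 and SPRED1 (56.3 to 90.7) did not differ beyond theirs.

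DUSP4, DUSP6 and SPRY4 had no peak above the authors' threshold within 5000 bp in either list. DUSP6 encodes the cytoplasmic phosphatase most specific for ERK and DUSP4 a nuclear one, and SPRY4 is a close relative of SPRY2. The nearest peaks lay well outside the genes. For DUSP4 (chromosome 8, 29333064 to 29350684) they were 17930 bp away in the control (fold 5.49) and 17393 bp away in the knockdown (fold 6.86), both on the lower-coordinate side. For DUSP6 (chromosome 12, 89347235 to 89352501) they were 17185 bp (fold 4.67) and 18360 bp (fold 6.90) away, both on the higher-coordinate side, within the readthrough gene POC1B-DUSP6 (89348065 to 89526047). For SPRY4 (chromosome 5, 142310430 to 142325021) they were 31577 bp (fold 11.0) and 31424 bp (fold 16.2) away, within the span of the lncRNA gene SPRY4-AS1 (142325293 to 142464054). A gene with no peak can still hold Pol II below the threshold of the lists.

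The other genes of the ERK pathway had peaks more often than the genome as a whole, but changed between the lists about as it did. Of 64 other pathway genes, 58 had a window peak in both lists, against 64.7% of all protein-coding genes. In neither list had 3 (DUSP8, SPRY1 and RPS6KA1) a peak, against 28.2% of all. A control peak without a knockdown peak was seen at 3 (4.69%, against 5.34% of all protein-coding genes), and the reverse at 0 (against 1.74%). Covered length was at least 1.5-fold lower in the knockdown list at 26 of the 58 (44.8%, against 48.2% of all genes) and at least 1.5-fold higher at 1 (1.72%, against 2.57%). The median ratio was 0.692, beside 0.677 over all genes. Windows of these genes can hold peaks of neighbouring genes, which were not separated.

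By role, the lists were small, and whether they differ was not tested. Over all genes with a peak in both lists, 48.2% were at least 1.5-fold lower and 2.57% at least 1.5-fold higher. The RAS, RAF, MEK and ERK genes had the lowest median ratio, 0.506, with 7 of 10 at least 1.5-fold lower. KSR1, a scaffold of the cascade, had 5 control peaks over 3564 bp and none in the knockdown list. Ligand and receptor genes had a median of 0.648 (7 of 13 lower), with EGF, a ligand of EGFR, in the control list only on 1 peak of 15 reads. Adaptor genes had a median of 0.742 (3 of 8 lower). ERK target and effector genes had the highest, 0.851 (2 of 14 lower), and RPS6KA1, a kinase activated by ERK, had no peak. Other brakes had a median of 0.619 (7 of 13 lower and 1 higher); DUSP9 was in the control list only, on 1 peak of 15 reads, and DUSP8 and SPRY1 had none.

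Among these pathway genes the largest falls in covered length were at EPHA2, a receptor tyrosine kinase gene (22154 to 12234 bp), RASAL2, a RAS GTPase-activating protein gene (9009 to 2508 bp), and IGF1R, the receptor of insulin-like growth factor (11798 to 6179 bp). The largest rises were at DUSP2, SPRED3 and ETV5. DUSP2, a nuclear MAP kinase phosphatase gene, went from 1 to 2 peaks and from 1729 to 2738 bp, with 68 and 90 reads at its strongest summit before correction for depth. SPRED3, of the SPRED family, went from 8605 to 9131 bp, and ETV5, an ETS factor gene used as an ERK readout, from 2034 to 2527 bp.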

How the data were processed

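Pol II ChIP-seq peak lists of 2 U2OS libraries were analysed, 1 per group. The submitters' processing notes name MACS2 2.1.0, Bowtie 1.1.2, Trimmomatic 0.33 and bcl2fastq 2.17, with build hg38 and no settings. The authors called peaks per library. The deposited columns give each peak's position, a score (10 times the −log10 q-value without decimals), the fold enrichment (a ratio of the summit over the background), the −log10 p-value and q-value, and the summit's place; these are the authors' values. The lists end at −log10 q of 3.01 (control) and 3.02 (knockdown).

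Reads at a summit were recovered from fold, (pileup + 1)/(background + 1), and the Poisson p-value; whole reads, within 0.01, came out for 100% of peaks in both lists. Relative depth came from the lowest background and the smallest peak width of each list (229 and 225 bp), and the calling depth of the knockdown list was 0.793 times that of the control. This takes the lowest background as the genome-wide level; the library behind the background is not given in the sources used here. The recovery was tested on simulated data. Intervals are exact at 95%, Poisson for reads and conditional binomial for ratios; reads without molecular identifiers are not independent molecules, so they cover counting error only. Peaks overlapped when sharing 1 bp. A peak counted for a window when it touched it, and covered length was clipped to the window; a covered length moves with how much was called, so reads and folds stand beside it. A change was called at 1.5-fold, with no test. Strand came from the RefSeq promoter table. The 9 genes were described in full; of 64 other pathway genes those with a peak in a single list and the 3 largest falls and rises in covered length were named, and others where a count was small. The members and lists were chosen with earlier results of these data known. Alternatives were windows of 1000 bp, gene bodies alone, peaks with −log10 q of at least 5, equal numbers of strongest peaks, an overlap of 50%, and reads in place of fold. Python 3.11.15 with numpy 2.4.6, pandas 2.3.3 and scipy 1.17.1 was used.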

Additional observations from a re-analysis of the deposited data

How the results depend on the processing

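The counts of genes and peaks, the overlaps and the ratio of summed covered length kept within 1.5 times of their values under windows of 1000 bp, peaks with −log10 q of at least 5, equal numbers of strongest peaks and an overlap of 50%. The q cut left all 13 control and 24 knockdown peaks of the members, and equal numbers left 12 and 24. Neither cut removed a knockdown peak of these genes, so neither can show how the weak ones depend on the threshold. The overlap of 50% left the overlapped peaks at 9 and 11. With gene bodies alone the summed covered length was 11931 bp in the control and 12299 bp in the knockdown list, since flanks were left out, and the ratio was 1.03. Over these settings the ratio of covered length ran from 1.64 to 2.11 at DUSP5, 1.37 to 1.81 at SPRY2 and 1.18 to 1.43 at ERRFI1, so SPRY2 did not pass 1.5-fold with the gene body alone. It ran from 0.357 to 0.759 at SPRED1 and from 0.666 to 0.774 at SPRED2, both of which were at least 1.5-fold lower with the gene body alone, SPRED2 only just. At DUSP1 the ratio ran from 0.729 to 1. It was 0.904 with windows of 1000 bp and 1 with the gene body alone, so the lower cover there lay in the flanks. With reads at control depth in place of fold, the strongest summit of SPRED2 turned from 2.14 (knockdown over control) to 0.903. That value sets the control peak before the gene against the knockdown peak at the start, 3974 bp apart; the start peaks alone gave 2.23 by fold and 1.33 by reads. The strongest summit of SPRY2 went from 0.686 to 1.21, and those of ERRFI1 and DUSP5 from 0.511 to 0.899 and from 1.37 to 2.19. The DUSP5 values, too, set different peaks against each other, 3440 bp apart. A second depth estimate, from the caller's scaling, was planned but equals the first by construction, so it was not run. No paired analysis was possible because each group held 1 ChIP library. The peaks in a single list at these genes, 13 in the knockdown and 4 in the control list, had 10 to 21 reads. How far they depend on depth was not tested.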

Other observations

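The genes here were chosen after their values were seen. Of the 7 genes with a gain of at least 8 peaks, 4 also gained covered length: CLIP4 (9 to 27 peaks, 12194 to 17143 bp), LAMB3, a laminin chain gene (4 to 21 peaks, 3906 to 13048 bp), KATNBL1 (2 to 11 peaks, 1827 to 7799 bp) and DUSP5. The other 3, SYNGR2 (9783 to 4907 bp), AMOTL2 (22262 to 7636 bp) and TK1 (11791 to 5276 bp), had more peaks over less sequence. SYNGR2 ends at 78172964 and TK1 starts at 78174079 on chromosome 17, so their windows overlap and can count the same peaks. A gain in the number of peaks alone therefore does not tell new cover from a wide peak divided into several, and at DUSP5 1 of the added peaks lay on a control peak.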
